A study of Mus musculus with 10 samples.

Results

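The genes of mitochondrial protein import were examined in RNA-seq of male mouse embryonic stem cells (mESCs). Members were taken by name: features called Timm or Tomm with a number, and Pmpca, Pmpcb, Grpel1, Grpel2, Pam16, Samm50, Mtx1, Mtx2, Chchd4 and Gfer, with pseudogenes left out. The rule found 32 of the 25965 features in the table, and used no measured value. Of these, 31 had a log2 value above 0 in at least 50% of the libraries and were tested; Tomm20l, a relative of the receptor gene Tomm20, was the exception, with 3 to 9 reads per library. Read numbers of Tomm20l, Tomm40l, Tomm70a and Pam16 assume, of several exon lengths that give whole reads, the one nearest the annotation. The rows of 4 members, Tomm40l, Tomm6, Pam16 and Timm9, carry the identifier of another gene that they overlap, and were taken by their name. Timm10b is listed under its older symbol Fxc1, which the rule does not take, in a row that carries the identifier of Arfip2; looked up after the other values were seen, it differed by 0.27 ± 0.0872 between the methods (log2, Keniry2022 minus Mulas2019, adjusted p = 0.0235) and is not counted among the members. Timm21, Timm29 and Timmdc1 were not analysed here.

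Cells of the C57/Bl6 strain were derived and expanded in 2i medium with LIF under the study's own culture method, so every group shares that history. Per the study, 2 independent lines were each split at passage 0 (p0) and carried for 10 and 20 passages (p10 and p20). Under Keniry2022 conditions, the study's method (New in the labels), cells grew in suspension at higher density and were passaged daily. Under Mulas2019 conditions, the reference method (Old), they grew attached to gelatin and were passaged every other day, so p20 Keniry2022 and p10 Mulas2019 are matched in days. Each of the 5 groups (p0, p10 Keniry2022, p20 Keniry2022, p10 Mulas2019 and p20 Mulas2019) holds 2 libraries, and the 4 libraries of a method are not 4 independent derivations.

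Most mitochondrial proteins are made in the cytosol and must cross the mitochondrial membranes. The TOM complex is the common gate of the outer membrane. Proteins with a presequence then pass through TIM23 into the matrix, pulled by an ATP-driven motor, carrier proteins are ferried by small TIM chaperones to TIM22, barrel proteins are built into the outer membrane by the sorting and assembly machinery, and small cysteine-rich proteins are trapped in the intermembrane space by a disulfide relay.

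Library totals, worked out from the values of features without reads, lay between 24053996 and 30236823. The p0 libraries stood apart from each other: the SD of the difference between replicates over all features was 0.611 at p0 and 0.23 to 0.265 in the other groups, on the log2 scale. Reads of 4 Y-linked genes were at 16 to 141 in replicate 1 and 5258 to 9162 in replicate 2 of 4 groups. At p20 Keniry2022 they were the other way around (7524 in replicate 1 and 50 in replicate 2). Replicate numbers as labelled were therefore not used as lines. From its DNA-seq, the study reports that a line lost the Y chromosome during derivation, before the methods were compared. All 10 markers of naive mESCs were expressed in every library, at a log2 RPKM of 4.73 or more, where RPKM is reads scaled to exon length and library total. No marker of primitive endoderm, 2-cell-like cells or fibroblasts passed the filter on low values, and of 6 trophoblast markers only Eomes did. Markers of the cells' state moved with the method. Under Keniry2022, 4 of the 10 naive markers were higher, Nr0b1 (0.86 ± 0.0704), Pou5f1 (0.40 ± 0.050), Zfp42 (0.30 ± 0.0371) and Nanog (0.18 ± 0.0512), and Klf4 was lower (-0.40 ± 0.087), on the log2 scale. Of 6 formative and primed markers 3 passed the filter. Dnmt3b (0.78 ± 0.0838) and Pou3f1 (0.45 ± 0.155) were higher, while Lef1 went the other way without being called (-0.26 ± 0.148). At p10 alone, 1 of these 3 was called higher and 1 lower. Eomes was lower (-0.40 ± 0.116). Their part in the differences of the import genes was not tested.

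Import genes were expressed at higher levels under Keniry2022 than under Mulas2019. With p10 and p20 pooled, 26 of the 31 tested members differed between the methods at an adjusted p under 0.05 (limma, Benjamini-Hochberg over 11654 features), against 51.5% of all features. Of these, 25 were higher under Keniry2022, where 25.9% of all features were, and only Tomm34 was lower, where 25.5% were. The 4 Keniry2022 libraries all lay above the 4 Mulas2019 libraries for 24 members (23.1% of all features) and all below them for Tomm34 (23.4%). The median log2 difference, Keniry2022 minus Mulas2019, was 0.237 over the members and -0.00302 over all features tested. The differences are small in most members. In 9 of the 26 the call was kept under each alternative in which the member was tested: Chchd4, Timm10, Timm23, Timm8a2, Tomm20, Tomm22, Tomm34, Tomm40l and Tomm70a. Timm8a2 was not tested under the filter at a log2 value of 2, which it did not pass. These 9 are also the calls left when the p0 libraries, with their wide spread, share the estimate of the error, a model in which 19.2% of all features were called.

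The mean log2 RPKM of the 31 members above the median of the library gave the same order library by library. It was 1.55 and 1.53 at p10 Keniry2022 and 1.489 and 1.495 at p20 Keniry2022, but 1.27 and 1.26 at p10 Mulas2019 and 1.26 and 1.26 at p20 Mulas2019. The 2 methods did not overlap, and the difference of their means was 0.255 (1.516 ± 0.0286 against 1.261 ± 0.0052, SD, n = 4 each). At p0 the value was 2.11 in replicate 1 and 1.52 in replicate 2, of which the second was within the Keniry2022 range. RNA was measured in bulk, so fewer cells that express a gene and less RNA per cell cannot be told apart.

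**Figure D1:**
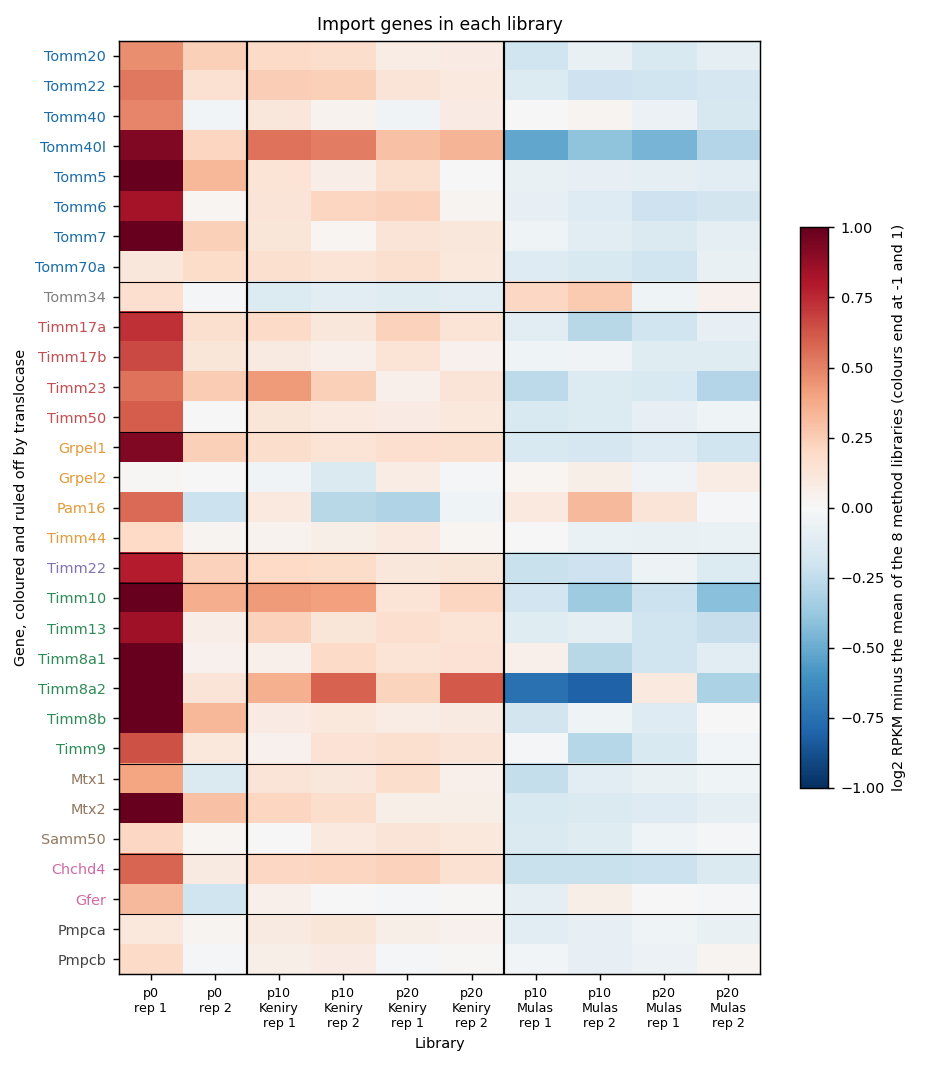
Log2 RPKM of each of the 31 tested import genes (rows, ruled off by translocase) in each of the 10 libraries (columns), minus that gene's mean over the 8 method libraries; red is higher and blue is lower. Rows are mostly red in the 4 Keniry2022 columns and blue in the 4 Mulas2019 columns, Tomm34 is the reverse, and p0 replicate 1 is the reddest column.

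Since the members moved largely in the same direction, their promoters were searched for 7 short motifs, chosen after the expression values were known, on both strands of a window from 250 bases before to 50 bases after each RefSeq start site (GRCm38.p6). A window was found for 29 of the 32 members; Grpel2, Tomm40l and Tomm7 had none. CCGGAAGT, the core bound by ETS factors such as GABP, which is a known regulator of nuclear genes for mitochondrial proteins, was in 6 of these 29 members (20.7%), which is 6 of the 28 that passed the expression filter (21.4%), in 10% of the 8915 matched genes that passed the expression filter and in 4.31% of all 27025 genes. CACGTG, the E-box bound by MYC and related factors, was in 5 members (17.2%; 4 of the 28 that passed the filter, 14.3%; 12.6% of the filtered genes and 8.09% of all), and AAGATGGC, the YY1 motif, in Mtx1 and Timm50 (7.14% of the 28; 5.73% and 3.19%). CCAATC, the CCAAT box of NF-Y, was in 3 members (10.7% of the 28; 24.5% and 18.2%). The NRF1 palindrome (2.47% and 1.07%), the cyclic AMP element TGACGTCA (3.78% and 2.03%) and TGATGNAA, the composite element of ATF4 (2.48% and 4.51%), were in none. A match describes the letters of these windows only, and binding was not measured.

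The ETS core is printed here because it was the motif found in the most members, and it lies within 80 bases upstream of the start in all but Timm10, where it is not wholly upstream. Each stretch runs 5′ to 3′ on the strand of the gene, with the core, or its reverse complement ACTTCCGG, in capitals. Timm8a2, an autosomal relative of the chaperone gene Timm8a1, holds it 2 times.
Timm23, chr14:32201895-32201964, minus strand: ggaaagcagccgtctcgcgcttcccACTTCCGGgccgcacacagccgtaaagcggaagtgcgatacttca
Timm8a2, chr14:122034604-122034673, plus strand: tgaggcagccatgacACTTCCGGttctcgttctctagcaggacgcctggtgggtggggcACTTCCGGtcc
Tomm70a, chr16:57121609-57121678, plus strand: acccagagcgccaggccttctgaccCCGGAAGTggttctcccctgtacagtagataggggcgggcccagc
Mtx2, chr2:74825742-74825811, plus strand: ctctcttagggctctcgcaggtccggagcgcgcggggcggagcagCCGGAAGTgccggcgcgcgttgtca
Pmpcb, chr5:21737090-21737159, plus strand: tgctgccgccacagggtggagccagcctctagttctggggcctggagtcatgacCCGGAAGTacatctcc

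The E-box lies upstream of the start in Tomm20, Timm9, Timm8a1 and Tomm20l and not wholly upstream in Timm10. It is shown for Tomm20 and Timm9, chosen with the difference of Myc between the methods known. Any part of MYC in their levels was not tested.
Tomm20, chr8:126946003-126946072, minus strand: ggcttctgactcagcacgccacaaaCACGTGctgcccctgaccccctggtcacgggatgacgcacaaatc
Timm9, chr12:71136689-71136758, minus strand: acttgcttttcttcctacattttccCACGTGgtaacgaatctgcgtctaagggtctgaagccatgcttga

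In the TOM complex, 7 of the 8 tested genes were higher under Keniry2022, and Tomm40, which encodes the channel itself, was the exception. The largest difference was in Tomm40l, a relative of the channel gene on chromosome 1 (171217802 to 171222514, minus strand, mm10). Its log2 RPKM was 3.31 and 3.28 at p10 Keniry2022, 3.06 and 3.11 at p20 Keniry2022, 2.25 and 2.37 at p10 Mulas2019 and 2.31 and 2.48 at p20 Mulas2019, against 3.69 and 2.98 at p0. The methods were separated by a wide gap. At an exon length of 6688 bases they had 1568 to 1878 reads per library under Keniry2022 and 770 to 1044 under Mulas2019. Mean RPKM was 1.79 times as high under Keniry2022 (log2 difference 0.84 ± 0.0727 SE, adjusted p = 4.5e-05). Exons of Tomm40l overlap those of Nr1i3, whose identifier its row carries, so some of its reads may belong to that gene. The annotation gives 5135 bases, and 6688 is the longer of 2 lengths that give whole reads. All its read numbers at 6688 bases are even, so the true counts may be lower.

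Tomm40 showed no such gap. Its log2 RPKM was 5.72 and 5.64 at p10 Keniry2022, 5.57 and 5.69 at p20 Keniry2022, 5.61 and 5.64 at p10 Mulas2019 and 5.55 and 5.45 at p20 Mulas2019. The methods overlapped, and the difference of 0.09 ± 0.0492 did not pass (adjusted p = 0.14). It turned to -0.01 under quantile normalisation, and it passed once length and GC content were corrected for (adjusted p = 0.00779).

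The receptors of the complex differed by intermediate amounts. Tomm22, the central receptor that also holds the complex together, was at 6.61 and 6.60 at p10 Keniry2022 and 6.49 and 6.46 at p20 Keniry2022, and at 6.23 and 6.16 at p10 Mulas2019 and 6.17 and 6.19 at p20 Mulas2019. No Mulas2019 library reached the lowest Keniry2022 library (difference 0.35 ± 0.0414, adjusted p = 0.000141). Tomm70a, the receptor for carrier proteins and their chaperones, was among the most highly expressed members. Its 24375 to 34998 reads per library assume the longer of 2 exon lengths that give whole reads, so the true counts may be lower.

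Tomm70a was at 6.76 and 6.74 at p10 Keniry2022, 6.77 and 6.71 at p20 Keniry2022, 6.47 and 6.45 at p10 Mulas2019 and 6.41 and 6.53 at p20 Mulas2019. The groups of the 2 methods were again apart, by 0.28 ± 0.0342 (adjusted p = 0.000172). Tomm20, the presequence receptor, was higher by 0.26 ± 0.0436 (adjusted p = 0.000967), from 5.28 to 5.40 under Keniry2022 and from 5.01 to 5.14 under Mulas2019.

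The small subunits that stabilise the channel, Tomm5, Tomm6 and Tomm7, were higher by 0.18, 0.30 and 0.19 (adjusted p = 0.00425, 0.000798 and 0.00176). Their transcripts are short, with exon lengths of 868, 1131 and 1125 bases. With exon length and GC content corrected for, the differences of Tomm5 and Tomm7 were -0.01 and -0.04, so for these 2 genes the direction rests on the scaling, whereas Tomm6 kept its call.

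Tomm34 was the member called lower under Keniry2022 than under Mulas2019. It encodes a cytosolic co-chaperone that carries the name Tomm but is no subunit of the pore. Its log2 RPKM was 4.05 and 4.08 at p10 Keniry2022, 4.06 and 4.09 at p20 Keniry2022, 4.40 and 4.45 at p10 Mulas2019 and 4.14 and 4.23 at p20 Mulas2019. All Keniry2022 libraries were below all Mulas2019 libraries, and the p10 Mulas2019 libraries were the highest. The difference was -0.23 ± 0.0631 pooled (adjusted p = 0.011), -0.35 ± 0.0499 at p10 (adjusted p = 0.000961) and -0.11 ± 0.0499 at p20 (adjusted p = 0.106). The p0 libraries, at 4.35 and 4.18, lay between the extremes.

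All 4 tested genes of the TIM23 complex, the inner membrane channel for presequence proteins, were higher under Keniry2022. Timm17a, a subunit of the channel, was at 5.18 and 5.10 at p10 Keniry2022, 5.22 and 5.12 at p20 Keniry2022, 4.89 and 4.72 at p10 Mulas2019 and 4.79 and 4.90 at p20 Mulas2019. The methods did not overlap (0.33 ± 0.0493, adjusted p = 0.000468). Its X-linked paralog Timm17b differed by 0.16 ± 0.042 (adjusted p = 0.00924), a call that was lost after the length and GC correction. Timm50, the receptor that hands presequences to the channel, was higher by 0.21 ± 0.0364 (adjusted p = 0.00112).

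Timm23, the channel core, was at 2.97 and 2.79 at p10 Keniry2022, 2.60 and 2.68 at p20 Keniry2022, 2.29 and 2.42 at p10 Mulas2019 and 2.39 and 2.26 at p20 Mulas2019. The methods were apart, by 0.42 ± 0.0808 (adjusted p = 0.00184). The gene had only 212 to 397 reads per library, far fewer than its partners. In GENCODE, 1121 bases of the feature Gm10273 match Timm23 at 99.9% identity, and 4 processed pseudogenes match it at 97% or more, so its level is uncertain, because the handling of reads with several alignments is not given in the sources used here.

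In the motor that pulls proteins into the matrix, the members differed among themselves. Grpel1, the nucleotide exchange factor of the motor's Hsp70, was at 5.06 and 5.03 at p10 Keniry2022, 5.05 and 5.05 at p20 Keniry2022, 4.74 and 4.72 at p10 Mulas2019 and 4.76 and 4.69 at p20 Mulas2019. The spread within each method was small beside the gap between them (0.32 ± 0.0321, adjusted p = 7.7e-05). Grpel2, its paralog, was at 2.86 to 3.08 under Keniry2022 and 2.97 to 3.08 under Mulas2019, with overlap (-0.06 ± 0.0548, adjusted p = 0.369).

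Timm44, which tethers the motor to the channel, differed by only 0.10 ± 0.0363 (adjusted p = 0.041), and lost the call in 10 of 19 alternatives. Pam16, a regulatory J-like subunit, had 126 to 210 reads per library at 1 of 3 exon lengths that give whole reads, so the true counts may be lower. Pam16 was at 1.21, 0.83, 0.81 and 1.07 under Keniry2022 and at 1.21, 1.43, 1.24 and 1.09 under Mulas2019. Its groups overlapped (-0.26 ± 0.114, adjusted p = 0.0757), and it shares 534 identical bases with the feature Gm9803. Hspa9, the Hsp70 of the motor and no member by name, was at 8.28 ± 0.0372 under Keniry2022 and did not pass either (-0.10 ± 0.0604, adjusted p = 0.181).

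Timm22, the carrier translocase of the inner membrane, was at 3.52 and 3.50 at p10 Keniry2022, 3.42 and 3.43 at p20 Keniry2022, 3.09 and 3.11 at p10 Mulas2019 and 3.26 and 3.18 at p20 Mulas2019. The methods did not overlap, and the gap was narrower at p20 (0.31 ± 0.0502 pooled, adjusted p = 0.000754).

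All 6 small TIM chaperone genes tested as members, whose products escort carrier and barrel proteins through the intermembrane space, were higher under Keniry2022. Timm10, a partner of Timm9 in the main hexamer, was at 5.27 and 5.26 at p10 Keniry2022, 4.98 and 5.06 at p20 Keniry2022, 4.66 and 4.49 at p10 Mulas2019 and 4.63 and 4.43 at p20 Mulas2019. Its libraries separated cleanly by method, with mean RPKM 1.51 times as high under Keniry2022 (0.59 ± 0.0757, adjusted p = 0.000216). Timm9 differed less (0.24 ± 0.0613, adjusted p = 0.00894), with Mulas2019 libraries from 3.90 to 4.16 and Keniry2022 libraries from 4.22 to 4.34.

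Timm8a2 had the largest log2 difference of all members and the lowest counts of these chaperones. It was at 2.02 and 2.26 at p10 Keniry2022, 1.89 and 2.28 at p20 Keniry2022, 0.92 and 0.86 at p10 Mulas2019 and 1.77 and 1.35 at p20 Mulas2019. The methods did not overlap, the p10 Mulas2019 libraries were the lowest, with 42 and 50 reads, and the replicates were wide (0.89 ± 0.186, adjusted p = 0.00299). At p10 alone the difference was 1.25 ± 0.169 (adjusted p = 0.000813), at p20 alone 0.53 ± 0.169 (adjusted p = 0.04), and the change of the difference between the passages did not pass (-0.72 ± 0.239, adjusted p = 0.214).

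Its X-linked paralog Timm8a1, the mouse counterpart of the human deafness-dystonia gene, overlapped between the methods (1.80 to 2.13 under Mulas2019 and 2.13 to 2.27 under Keniry2022) although the fit called it (0.26 ± 0.0761, adjusted p = 0.0158). Timm13, its partner in the second hexamer, was higher by 0.33 ± 0.0413 (adjusted p = 0.000211). Timm8b differed by 0.18 ± 0.0427 (adjusted p = 0.00627), and the calls of Timm8b and Timm8a1 were lost after the length and GC correction.

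**Figure D2:**
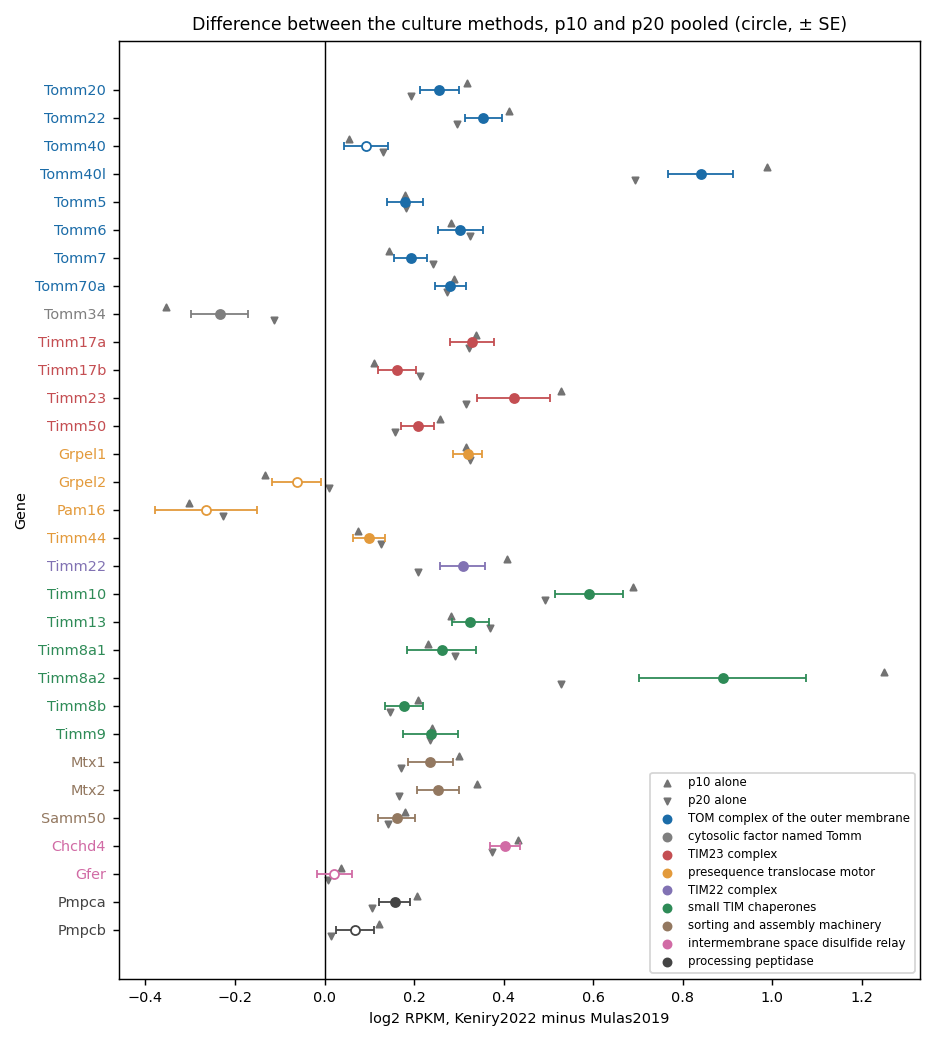
Difference in log2 RPKM, Keniry2022 minus Mulas2019, for each of the 31 tested import genes, with p10 and p20 pooled (circle ± SE, open where the adjusted p was 0.05 or more) and at p10 and p20 alone (triangles). All filled circles are to the right of 0 but that of Tomm34, and Tomm40l and Timm8a2 lie farthest right at 0.84 and 0.89.

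The 3 genes of the sorting and assembly machinery were all higher under Keniry2022, by small amounts. Samm50, its barrel core, was the most highly expressed member, with a mean RPKM of 151.5 under Keniry2022 and 135.6 under Mulas2019 (0.16 ± 0.0419, adjusted p = 0.00928), and its difference turned to -0.01 under quantile normalisation. The metaxin genes Mtx2 and Mtx1, which encode its cytosolic lids, differed by 0.25 ± 0.0465 and 0.24 ± 0.0504 (adjusted p = 0.00145 and 0.00333). Mtx2 was at 4.15 and 4.10 at p10 Keniry2022, 3.99 and 3.99 at p20 Keniry2022, and 3.78 to 3.84 in the Mulas2019 libraries, with no overlap.

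The disulfide relay showed a split between its enzymes. Chchd4, the oxidoreductase (Mia40) that receives incoming proteins and traps them by oxidation, was at 6.32 and 6.33 at p10 Keniry2022, 6.35 and 6.27 at p20 Keniry2022, 5.90 and 5.89 at p10 Mulas2019 and 5.90 and 5.98 at p20 Mulas2019. The gap between the methods was several times the spread within them, and mean RPKM was 1.32 times as high under Keniry2022 (0.40 ± 0.0336, adjusted p = 3.9e-05). Gfer, the sulfhydryl oxidase that recharges Chchd4, was at 5.11, 5.06, 5.05 and 5.07 under Keniry2022 and at 4.97, 5.12, 5.06 and 5.05 under Mulas2019. These libraries overlapped, and the difference was 0.02 ± 0.0387 (adjusted p = 0.655).

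Of the subunits of the processing peptidase, which cuts off presequences in the matrix, Pmpca differed by 0.16 ± 0.0337 (adjusted p = 0.0035) and the catalytic subunit Pmpcb by 0.07 ± 0.0421 (adjusted p = 0.199). Pmpca was at 5.424 to 5.504 under Keniry2022 and 5.26 to 5.34 under Mulas2019, with no overlap, while the ranges of Pmpcb, 3.68 to 3.78 and 3.62 to 3.73, overlapped.

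**Figure D3:**
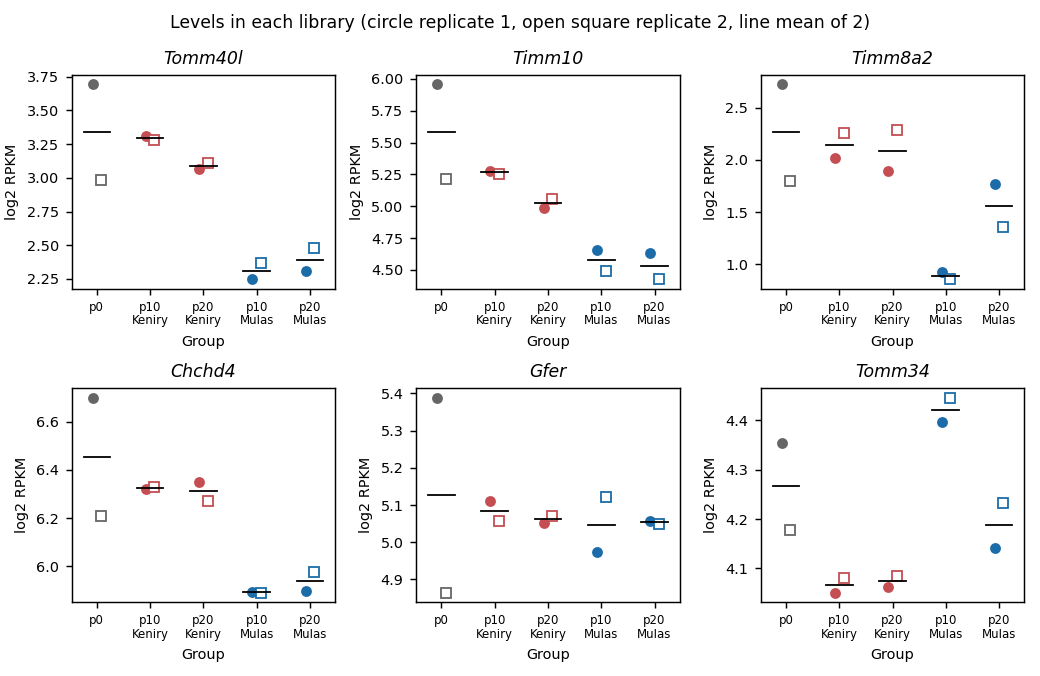
Log2 RPKM of 6 import genes in each library, by group (circle, replicate 1; open square, replicate 2; line, mean of the 2), on axes that do not start at 0. Tomm40l, Timm10, Timm8a2 and Chchd4 are higher in both Keniry2022 groups than in both Mulas2019 groups, Gfer overlaps, and Tomm34 is lower under Keniry2022.

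The methods were then compared within passages, in a model of the 8 method libraries. At p10, 22 of the 31 members differed (48.3% of all features did), of which 21 were higher under Keniry2022 (24.8%) and Tomm34 was lower (23.5%). At p20, 19 differed, all of them higher (36.7% of all features differed and 18.6% were higher). Of the members called higher, 18 were shared by p10 and p20, with Mtx1, Pmpca and Timm8b called at p10 alone and Timm17b at p20 alone. The median log2 difference was 0.258 at p10 and 0.209 at p20.

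With days in culture matched, p20 Keniry2022 against p10 Mulas2019, 22 members differed (43.4%), 21 of them higher (22.7%) and Tomm34 lower (20.7%), with a median of 0.24. Differences on this scale were 0.78 ± 0.0749 for Tomm40l, 0.45 ± 0.0775 for Timm10, 0.42 ± 0.044 for Chchd4 and -0.35 ± 0.0499 for Tomm34. When the p0 libraries entered the model, 4 members were called at p10 (8.53% of all features), 0 at p20 (2.15%) and 0 with days matched (6.43%). The model without p0 was chosen with the spread of the p0 libraries known.

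A change of the method difference between the passages was called in no member (0 of 31 in limma, and 0% of all 11654 features), although 5 members and 1836 features had an unadjusted p under 0.05. With more passages under Keniry2022, from p10 to p20, 0 members were called (0.0343% of features), with 5 at an unadjusted p under 0.05: Timm10 (-0.24), Timm23 (-0.24), Tomm40l (-0.21), Mtx2 (-0.14) and Tomm22 (-0.13). Under Mulas2019, 0 members were called (2.47%) and 4 had an unadjusted p under 0.05: Timm8a2 (0.67), Samm50 (0.11), Tomm34 (-0.23) and Timm13 (-0.11). Tomm34 came closest, with an adjusted p of 0.0513, and was the 1 member called under 4 of the alternatives.

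The p0 libraries differed from each other in the level of the import genes. In p0 replicate 1, 30 of the 31 members were above p0 replicate 2, by a median log2 of 0.542, while the median over all features was 0.0238. The excess was largest in transcripts of short annotated length: Timm8a1 was at 3.36 and 2.12, Timm8b at 7.63 and 6.59, and Tomm5 at 7.19 and 6.20. Tomm70a, with 9777 annotated exon bases, was at 6.72 and 6.79. The 10 members shortest by annotation were higher by a median of 0.864 and the 10 longest by 0.359. Among the longest, several exon lengths give whole reads for Timm17a (5), Samm50 (4), Chchd4 (4) and Tomm70a (2). The lengths behind their values may be shorter than annotated, so the order by length is uncertain.

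Over the 31 members the difference between the p0 libraries fell with log2 annotated exon length (r = -0.708, Spearman rho = -0.684), as it did over 11338 features (r = -0.476). These are descriptions, since the genes share the same libraries. The method difference was less tied to length, with r = -0.197 over the members and medians of 0.314 and 0.247 in the 10 shortest and the 10 longest. The part of transcript length in either difference was not tested beyond the length and GC correction, which used the same annotated lengths.

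**Figure D4:**
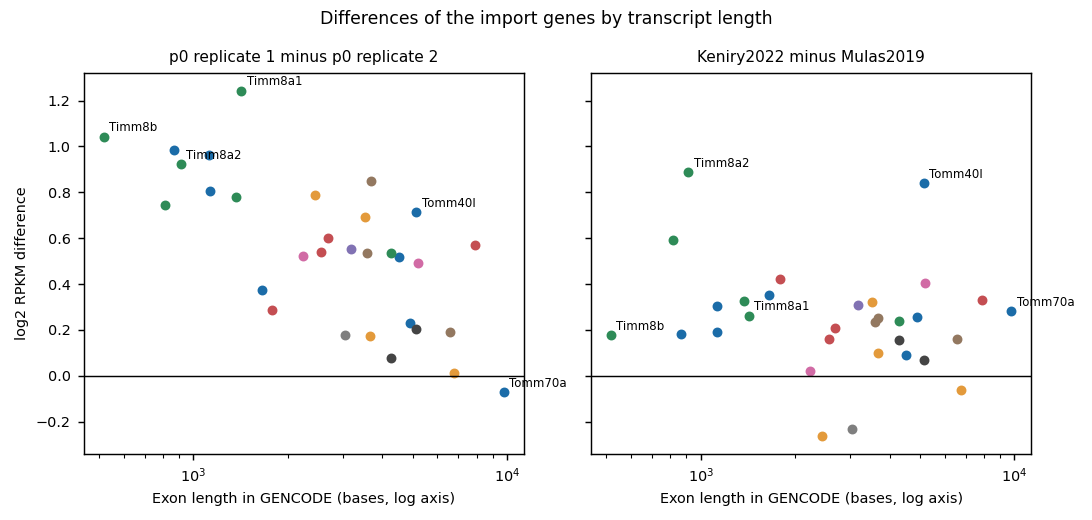
Difference in log2 RPKM of the 31 tested import genes against annotated exon length (log axis), between the p0 libraries (left) and between the methods (right), coloured by translocase as in the plot of method differences. On the left transcripts of short annotated length lie highest (r = -0.708), and on the right the points scatter around 0.237 with little slope (r = -0.197).

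Against p0, no member was called under Keniry2022 at p10 or at p20 (0 of 31 in limma, and 0.199% of features at either passage), with 4 and 8 members at an unadjusted p under 0.05. Under Mulas2019, 15 members were called at p10 (33% of features) and 16 at p20 (29.3%), all lower than p0 (17.3% and 14.6% of features were lower), of which 14 were shared. These included Tomm40l (-1.03 ± 0.203 at p10), Timm10 (-1.01 ± 0.212), Tomm20 (-0.49 ± 0.0957) and Tomm22 (-0.51 ± 0.117). Which of the p0 libraries is taken changes these results. With p0 replicate 2 alone, the median log2 difference of the members at p10 and p20 was 0.054 and 0.0227 under Keniry2022 and -0.252 and -0.242 under Mulas2019. With p0 replicate 1 alone, it was -0.489 and -0.506 under Keniry2022 and -0.747 and -0.761 under Mulas2019. The median over all features lay between -0.0193 and 0.0264 in these comparisons. With library weights, 0 members were called under Mulas2019 at either passage, and 0% of all features. Fewer members, and fewer of all features, were also called under Mulas2019 when any 1 method library was left out. The median of the members at p10 was -0.544 without p10 Mulas2019 replicate 1 and -0.51 without replicate 2. At p20 it was -0.509 without p20 Mulas2019 replicate 1 and -0.527 without replicate 2.

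Library by library, against p0 replicate 2, the median member was between -0.011 and 0.0364 in the 4 Keniry2022 libraries and between -0.317 and -0.185 in the 4 Mulas2019 libraries. Against p0 replicate 1, the same medians were -0.517 to -0.466 and -0.778 to -0.724. In 23 of the 31 members all 4 Mulas2019 libraries lay below both p0 libraries (26.7% of all features), and in 8 all 4 Keniry2022 libraries did (19.3%). The comparisons of the 2 methods with p0 share the p0 libraries.

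Genes around the import machinery were examined as lists, without a test of the lists, for the pooled comparison of the methods, in which 25.9% of all features were higher and 25.5% lower. Among 10 matrix chaperones and proteases, 5 were higher and 1 was lower under Keniry2022 (median 0.116): the chaperonin genes Hspe1 (0.37 ± 0.0399) and Hspd1 (0.24 ± 0.0321) and the protease subunit Clpp (0.33 ± 0.0392) were higher, and the inner membrane protease gene Spg7 was lower (-0.23 ± 0.041). Of 6 tested genes of MICOS, which shapes the cristae, 4 were higher and none lower (median 0.186), with Immt at 0.29 ± 0.0314. Among 8 cytosolic delivery factors 4 were higher and 1 lower (median 0.218), led by the co-chaperone genes Dnaja1 (0.48 ± 0.0534) and Dnaja2 (0.30 ± 0.0322) with Hsp90aa1 (0.41 ± 0.0762), and Hsp90ab1 was lower (-0.17 ± 0.0429).

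The remaining lists gave mixed counts. Of 11 other import partners 4 were higher and 1 lower (median 0.0614), of 8 other peptidases 1 and 1 (median -0.0266), and of 7 outer membrane channels and matrix markers 4 and 0 (median 0.127), among them the prohibitin genes Phb (0.30 ± 0.0424) and Phb2 (0.22 ± 0.0316). Of 7 tested genes listed for surveillance of stalled import none was higher and 3 were lower (median -0.152). These were the stress response factor Atf5 (-1.05 ± 0.0763), the ubiquitin ligase gene March5 (-0.23 ± 0.0425) and Ubqln1 (-0.15 ± 0.0388). With days matched, 1 of the 7 was higher and 3 were lower. A response to stalled import was not tested. Among 11 regulators of mitochondrial gene expression 4 were higher and 1 lower (median 0.113), with Myc at 1.95 ± 0.285, Mycn at 0.31 ± 0.066 and Yy1 at 0.12 ± 0.0292. Myc was low, at a mean log2 RPKM of 1.03 under Keniry2022 and -0.91 under Mulas2019, and passed the filter on low values only through Keniry2022. Gabpa, the DNA-binding subunit of GABP, was at 0.00 ± 0.0399 (adjusted p = 0.939). Whether these factors have a part in the levels of the import genes was not tested.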

How the data were processed

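RNA-seq was available for 10 libraries in 5 groups of 2. The authors deposited 1 table with a log2 value per feature and library. It is named as log CPM, but in features without reads the value depends on exon length, so the deposited log2 values are log2 RPKM, with 0 reads entered as 0.9 reads. The study names HISAT2 and SeqMonk; the submitters' processing notes name bcl2fastq, TopHat2 2.0.12 and mm10. The sources used here name no annotation release, strand setting or rule for reads with several alignments. Library totals and read numbers were worked out from the values. For 22 of the 32 members 1 exon length gave whole reads (within 0.03 reads) in all libraries. For the others the length nearest GENCODE vM21 was taken, so their read numbers are less certain, and some may be too high.

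Values were tested with limma 3.58.1 in R 4.3.3 (intensity trend, two-sided, Benjamini-Hochberg over all features tested, threshold 0.05), with no pseudocount, for features with a log2 value above 0 in at least 50% of the libraries of the fit. The trend method takes the place of the study's voom, which needs counts. The pooled comparison, in which p10 and p20 count as replicates after the study's own design, used 4 libraries per method, comparisons of the methods within passages the 8 method libraries, and those with p0 all 10. P-values measure the spread between these libraries. The fits were tested on simulated data, drawn with independent libraries and the spread of the groups other than p0. The wide spread at p0 and the shared lines were not simulated, so their effect on the fits was not tested. Every member may be named, grouped by translocase. The members, the lists and the model without p0 were chosen with earlier results of these data known.

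Exon overlaps and copies (blastn 2.17.0, at least 75 bases at 97% identity) came from GENCODE vM21. Exons of 13 members overlap another feature: Timm17b, Tomm20l, Tomm40, Tomm40l, Tomm6, Tomm70a, Tomm34, Grpel1, Pam16, Pmpca, Timm8b, Timm9 and Mtx1. Processed pseudogenes match Timm23, Tomm20, Timm8a1, Tomm22, Tomm5 and Grpel2. Reads of these genes could have been split. Alternatives were other filters, log2(RPKM + 1), median centring, quantile normalisation, correction for exon length and GC content, library weights, passage as a covariate, the replicate block with the numbers as labelled and crossed, the model of all 10 libraries and each library left out.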

Additional observations from a re-analysis of the deposited data

Results flagged for a closer look

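In 3 of 62 groups of 4 libraries (31 members under each method), 1 library lay far from the other 3 by Dixon's rule, which chance alone meets in about 1 of 20 groups. Tomm7 was at 6.20 in p10 Keniry2022 replicate 2, against a median of 6.30 in the other Keniry2022 libraries. Chchd4 was at 5.98 in p20 Mulas2019 replicate 2, against 5.90, and Timm44 at 4.39 in p10 Mulas2019 replicate 1, against 4.32.

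For 3 of the 31 members both p20 libraries lay on 1 side of both p10 libraries under Keniry2022 and on the opposite side under Mulas2019. The change from p10 to p20 was -0.08 under Keniry2022 and 0.12 under Mulas2019 for Timm22 (difference -0.20), -0.14 and 0.04 for Mtx2 (difference -0.18), and -0.06 and 0.05 for Pmpca (difference -0.10). In the limma test of the difference itself none of the 3 passed (adjusted p = 0.255, 0.254 and 0.404).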

How the results depend on the processing

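At the exon lengths taken, depth did not limit most members (481 reads or more in each library), and of those tested Timm8a2, Timm8a1, Pam16 and Timm23 rest on fewer. Tomm40l and Timm9 may also rest on fewer, because shorter lengths give whole reads for them too. Entering p0 in the model left 9 members called with the passages pooled (19.2% of all features), 4 at p10 (8.53%), 0 at p20 (2.15%) and 0 with days matched (6.43%). Quantile normalisation left 20 pooled (46% of all features), 12 at p20 (28.1%) and 14 with days matched (38.3%). The medians of the members were then 0.165, 0.127 and 0.133. The length and GC correction left 15 with days matched (39.7% of all features, median of the members 0.145). Quantile normalisation moved the difference in mean level from 0.255 to 0.194. From p10 to p20 under Mulas2019, 1 member (Tomm34) was called under the filter at a log2 value of 2, median centring and the length and GC correction. Of all features, 3.89%, 2.91% and 3.61% were. Against p0 under Mulas2019, 0 members were called at either passage with library weights (0% of all features), and 9 at p20 without a filter (15%).

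With 1 library left out at a time, members called ranged from 25 to 26 pooled, 18 to 22 at p10, 10 to 21 at p20 (10 without p20 Keniry2022 replicate 1, 12 without either p20 Mulas2019 library) and 17 to 22 with days matched. Against p0 they ranged from 0 to 26 under Keniry2022 at either passage, 0 to 28 at p10 Mulas2019 and 0 to 30 at p20 Mulas2019, with the highest values all without p0 replicate 2. Leaving out a library of the tested Mulas2019 group gave 0, and leaving out another method library 7 at p10 and 4 to 5 at p20. Pooled, 43.6% to 49.3% of all features were called in these fits. Wherever fewer members were called than in the main models, fewer of all features were called too. Without p0 replicate 2, most of all features were called in each comparison with p0, so the highest counts are not specific to import genes. A library left alone in its group was assumed to vary like the others. The difference in mean level ranged from 0.244 to 0.264.

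The direction of single members turned, pooled, for Tomm5 (-0.0065) and Tomm7 (-0.0394) after the length and GC correction, for Tomm40 (-0.00893) and Samm50 (-0.010) under quantile normalisation, and for Gfer under both (-0.00291 and -0.0669). With 1 library left out at a time Gfer ranged from -0.00394 (without p10 Mulas2019 replicate 1) to 0.0461. After that correction Tomm5 (-0.0199) and Tomm7 (-0.109) turned at p10 and Tomm7 (-0.0481) with days matched. Quantile normalisation turned Samm50 at p20 (-0.0442) and Tomm70a against p0 under Mulas2019 (0.00328 at p10 and 0.0384 at p20). The causes were not tested.

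Replicate numbers as labelled shared no deviation throughout, and the main models did not take them as pairs. For p20 Keniry2022 with each other group r was between -0.698 and -0.118, and among the others it was 0.171 to 0.63. The sign turned only for the group whose Y-linked reads were the other way around. These values therefore do not show that the lines lack a shared deviation. Whether the numbers of p20 Keniry2022 were exchanged was not tested. With the replicate block 25 members were called pooled (49.3% of all features), 22 at p10 (47.5%), 18 at p20 (35.3%) and 23 with days matched (42.4%). In the interaction, from p10 to p20 and for Keniry2022 against p0, 0 were called (2.4% of features or fewer). For Mulas2019 against p0, 15 were called at either passage (30.9% of features at p10 and 27.1% at p20). With the p20 Keniry2022 numbers crossed in the replicate block, an alternative added after the data were seen, 25 were called pooled (49.6% of all features). At p10 22 were called (48.7%), at p20 20 (37.6%) and with days matched 22 (43.8%). In the interaction 0 were called (0%), from p10 to p20 0 under Keniry2022 (0.0944%) and 1 under Mulas2019 (Tomm34, 4.23%). For Keniry2022 against p0 0 were called (0% at either passage), and for Mulas2019 15 at p10 (29.8%) and 14 at p20 (25.9%).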
